A study of Homo sapiens with 18 samples.

Results

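The exon parts described here are the probe sets of an Affymetrix exon-level array whose ID holds chromosome code 03 and a running number. They were chosen by their measured level, where the deposited log2 value averaged at least 5 over 9 arrays. This gave 16648 members of 34838 chromosome 3 exon parts (47.8%), and 6.64% of the 250847 exon parts of codes 01 to 22 with such a mean. The members nearest the minimum averaged 5.00012 just inside and 4.99995 just outside it. The choice names 231T against control along the running number, so values of that contrast, the junction and gene-level ones included, are given as a description with no test. PTX against control was tested.

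All cells were MDA-MB-231, a human breast cancer cell line of the triple-negative kind. The 231T cells overexpressed TRA2A from a vector, the PTX cells were treated with paclitaxel, a microtubule-stabilising agent, at 10 nM, and the control cells had neither. Each group had 3 arrays. The promoter and any selection of the TRA2A vector, an empty vector in the other groups and the time on paclitaxel are not stated in the labels. For control replicates 2 and 3, the free-text description spells the line with a different last digit; the other labels have MDA-MB-231. The labels do not say whether replicate arrays stem from different cultures. The p-values therefore measure only the spread among these arrays, which may be technical.

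An exon part is a stretch of an exon that transcripts include or leave out as a unit. The exon parts of a gene therefore report on the same RNA and are not independent, and a gene can hold parts that move against the rest of it. Chromosome 3 is known in carcinomas for loss of its short arm, 3p, which carries growth-restraining genes such as VHL, and for gain of its long arm, 3q, which carries PIK3CA and SOX2. TRA2A lies on another chromosome and is a splicing factor that binds purine-rich exonic enhancers, and its paralogue TRA2B lies on 3q. The label of the members held on the files: of 870 named genes with a RefSeq strand, 100% up to number 19224 lay on the plus strand and 100% after it on the minus strand. Within both stretches 100% of neighbouring genes stood in ascending RefSeq order.

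Of the members, 13473 (80.9%) were paired with 1 gene symbol by the platform annotation, and these came to 1036 symbols. A further 471 members had several symbols and 2704 had none. After the highest number with 1 symbol, 38639, came 1692 more members.

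Each value below is a log2 value minus its array's median over all exon parts of codes 01 to 22, so that 0 stands for the median exon part of that array. As deposited, that median averaged 4.61 ± 0.03 in 231T, 5.02 ± 0.05 in PTX and 5.01 ± 0.02 in control (SD, n = 3 each), and centring takes out this shift of -0.40 between 231T and control. Gene-level medians differed less, by -0.07 between 231T and control. Deposited values reached 19.9 among the members, beyond what a scanner of 16 bits records, and 420 members averaged above that, so differences are not read as folds of RNA.

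Promoters of genes whose exon parts moved together are shown for ATP13A3 and TFRC, which hold all or all but 1 of the members of the 2 longest runs of neighbours higher in 231T, and for PLXNA1 and PLXND1, the genes of the 2 longest lower runs that have a symbol. They are RefSeq sequences of build GRCh38.p14, from 250 bases before to 50 bases after the start, with each CG in capitals. The probe sequences of the exon parts were not used here.
ATP13A3, chr3:194468336-194468635, minus strand: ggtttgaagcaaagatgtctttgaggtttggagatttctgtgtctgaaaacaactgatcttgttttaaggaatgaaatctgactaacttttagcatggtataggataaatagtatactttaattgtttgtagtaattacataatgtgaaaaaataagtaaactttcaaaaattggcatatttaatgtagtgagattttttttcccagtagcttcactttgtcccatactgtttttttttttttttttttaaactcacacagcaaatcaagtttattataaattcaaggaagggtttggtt
TFRC, chr3:196082041-196082340, minus strand: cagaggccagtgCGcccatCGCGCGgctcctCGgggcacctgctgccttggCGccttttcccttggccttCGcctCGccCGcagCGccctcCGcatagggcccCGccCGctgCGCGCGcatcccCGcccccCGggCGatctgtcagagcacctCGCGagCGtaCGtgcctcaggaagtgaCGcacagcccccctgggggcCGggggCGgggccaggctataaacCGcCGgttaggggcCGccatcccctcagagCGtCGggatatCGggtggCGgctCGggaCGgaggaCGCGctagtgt
PLXNA1, chr3:126982865-126983164, plus strand: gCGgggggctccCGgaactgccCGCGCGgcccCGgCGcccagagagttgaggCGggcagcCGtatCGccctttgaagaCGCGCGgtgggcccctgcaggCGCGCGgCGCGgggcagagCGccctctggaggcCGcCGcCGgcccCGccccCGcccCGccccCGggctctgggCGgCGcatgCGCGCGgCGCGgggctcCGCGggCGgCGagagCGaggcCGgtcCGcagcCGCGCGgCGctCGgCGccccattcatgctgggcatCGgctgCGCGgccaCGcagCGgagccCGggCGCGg
PLXND1, chr3:129606627-129606926, minus strand: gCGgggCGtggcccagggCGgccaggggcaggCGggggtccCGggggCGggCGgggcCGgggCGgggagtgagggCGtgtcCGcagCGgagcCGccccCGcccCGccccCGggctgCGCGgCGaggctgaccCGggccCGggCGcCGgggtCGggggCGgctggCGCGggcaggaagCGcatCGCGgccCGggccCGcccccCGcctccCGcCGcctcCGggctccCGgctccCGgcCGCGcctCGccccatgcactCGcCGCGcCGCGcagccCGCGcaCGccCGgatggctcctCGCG
The PLXNA1 and PLXND1 windows held 54 and 52 CG at 83.0% and 87.3% GC, and the TFRC window 37 CG at 73.3% GC. The ATP13A3 window, at the start the table lists for that gene, held 0 CG at 28.3% GC. TATAAA was found in the ATP13A3 and TFRC windows, and GGGCGG in all of these but the ATP13A3 one. The TATAAA of TFRC lay before the start, and that of ATP13A3 after it, among the last 50 bases. Searched on both strands, TATAAA stood in 13.0%, CACGTG in 7.32% and GGGCGG in 42.8% of 1652 chromosome 3 promoters. Over 46 genes with a long run higher in 231T the shares were 8.70%, 10.9% and 78.3%, and over 17 genes with a long run lower they were 17.6%, 0% and 70.6%. These shares are set against all promoters, while genes with at least 10 members had a median promoter GC of 65.0%, against 65.3% for the higher runs and 69.7% for the lower ones. Across 486 such genes, promoter GC and the 231T difference had a Spearman rho of -0.06, given as a description since the genes share arrays.

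TRA2A itself, on chromosome 7, checked the labels: its 22 exon parts had medians of 5.79, 5.43 and 5.43 in 231T, of 4.58, 3.02 and 3.60 in PTX and of 2.07, 2.31 and 2.17 in control. In PTX 14 of these parts lay wholly above control and 0 below, beside 7.61% and 12.7% of exon parts over codes 01 to 22. The test was passed by 2 of them, both higher (limma), beside 0.0918% of all exon-part and junction probe sets. How these calls fare with arrays left out was not examined. At the gene level the PTX difference of 1.02 did not pass (limma, adjusted p = 0.101). Deposited gene-level values of markers of this mesenchymal line averaged 13.1 for VIM, 9.96 for EGFR and, over a pair of probe sets, 10.9 and 4.37 for CD44. Those of markers of hormone receptor, fibroblast or immune identity averaged 3.70 for ESR1, 3.61 for PGR, 4.13 for COL1A1, 4.01 for COL1A2, 3.56 and 3.65 for DCN, 3.73 for PTPRC, 4.10 for CD3E and 3.83 for CD14. These are levels of different probes and are not compared with each other. The 23 background probe sets, binned by GC count, also differed on centred arrays: 17 had all 3 231T arrays above the 3 control arrays and 0 below, with differences between -0.97 and 0.99, against -0.76 to 0.29 for PTX minus control. Centring removes the shift of -0.40 between 231T and control, which raises every exon-level 231T difference by that amount, these included. The part of the background probe sets in the results below was not tested.

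The centred median of the members was 2.68, 2.69 and 2.38 in 231T, 2.49, 1.96 and 2.20 in PTX and 2.23, 2.32 and 2.26 in control. All 3 231T arrays lay above the 3 control arrays, while the PTX arrays spread on both sides of them. The 231T difference of 0.31 was the 4th highest of 22 chromosome codes, after codes 5 (0.45), 18 (0.37) and 2 (0.36). Without centring it was -0.09, with the sign turned. The PTX difference of -0.05 (SE 0.13) did not pass over the 22 codes (limma, adjusted p = 0.948), and 0% of the codes did. Without PTX replicate 2 it was 0.07. The 10649 chromosome 3 junction probe sets, which span 2 exons, differed by 0.04 (SE 0.07) in PTX against control (limma, adjusted p = 0.761). Without PTX replicate 1 that value was -0.04. In 231T against control the junction median differed by 0.11, and the arrays overlapped.

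Of the members, 5537 (33.3%) had all 3 231T arrays above the 3 control arrays and 3763 (22.6%) had them all below, beside 28.6% and 25.4% of exon parts over codes 01 to 22. These shares are of centred values and were not counted without centring. The median member differed by 0.18 in 231T against 0.04 over codes 01 to 22. In PTX, 1126 members (6.76%) lay wholly above control and 2186 (13.1%) wholly below, beside 7.61% and 12.7%. The plus-strand stretch of the numbering, 7308 members, had medians of 2.81, 2.83 and 2.50 in 231T, 2.55, 1.996 and 2.24 in PTX and 2.27, 2.39 and 2.31 in control. The 7648 members of the minus-strand stretch had 2.76, 2.74 and 2.45 in 231T, 2.60, 2.06 and 2.31 in PTX and 2.32, 2.41 and 2.36 in control. In both stretches the 231T arrays lay above control and the PTX arrays overlapped it. In the 1692 members with higher numbers the 231T arrays overlapped control, with a difference of 0.11.

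**Figure D1:**
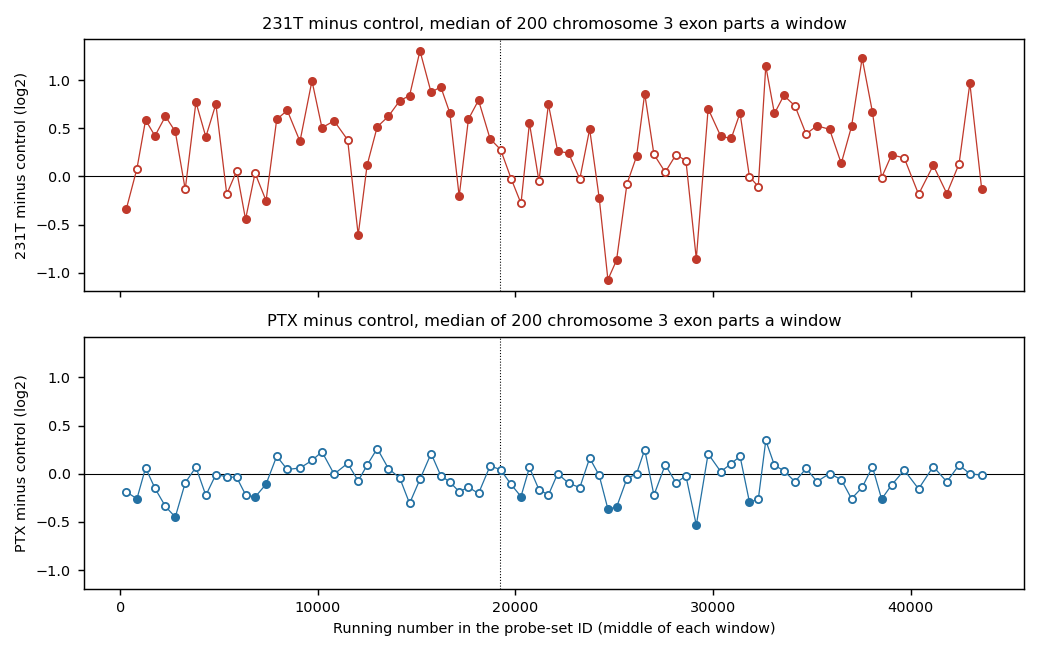
Difference from control (log2, vertical axis) of the median of each window of 200 neighbouring members against the running number (horizontal axis), for 231T above and PTX below. Filled points mark windows whose 3 arrays all lie beyond the 3 control arrays, and the dotted line marks number 19224, where the strand of the named genes turns. The 231T windows range between -1.07 and 1.303, and the PTX windows between -0.53 and 0.35.

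Split into 83 windows of 200 members, 231T lay wholly above control in 48 windows and wholly below in 11. The same count was not made for the windows of other codes, so it is not read as particular to chromosome 3. Nor was it made on deposited values, where the chromosome 3 median differed by -0.09. The highest window, 14866 to 15471, began with MBNL1, a splicing regulator, and ended with MFSD1, a lysosomal transporter. Its medians were 4.02, 4.07 and 3.32 in 231T, 2.88, 2.06 and 2.41 in PTX and 2.49, 2.52 and 2.50 in control. Next came a window with P3H2 to ACAP2, which holds ATP13A3, with a difference of 1.23, and one with TOPBP1 to STAG1, with 1.15. The lowest 231T windows were neighbours on 3p. The window from PRKAR2A to LAMB2, 24490 to 24872, had 3.70, 3.73 and 3.64 in 231T, 4.31, 4.39 and 4.48 in PTX and 4.72, 4.63 and 4.92 in control. The following window, from LAMB2 to UBA7, had 2.40, 2.46 and 2.27 in 231T, 2.90, 2.80 and 2.99 in PTX and 3.27, 3.20 and 3.27 in control. In both, 231T and PTX lay wholly below control, whose arrays both comparisons share. The lowest window thus held neighbours that are not the same gene, among them QARS, a glutamine tRNA ligase, and LAMB2, a laminin subunit of basement membranes.

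For PTX against control, 0 of the 83 windows passed (limma), as did 0% of the 1256 windows of all codes, and 6 of the 83 had an unadjusted p under 0.05. The lowest window in PTX, 28898 to 29412 from CPOX to IFT57, had 2.86, 2.10 and 2.84 in PTX against 3.12, 3.04 and 3.23 in control, a difference of -0.53 (SE 0.20, adjusted p = 0.340). It holds ABI3BP, an extracellular matrix protein, with more parts than any other gene there. The highest, TOPBP1 to STAG1, had 2.88, 1.98 and 2.27 in PTX against 1.98, 2.02 and 2.10 in control, a difference of 0.35 (SE 0.26, adjusted p = 0.771), with overlapping arrays.

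Neighbouring members formed long runs, defined as at least 10 in a row with all 3 231T arrays on the same side of the 3 control arrays. There were 61 higher runs with 787 members and 24 lower runs with 358 members. Runs in other codes were not counted, so these numbers are not read as particular to chromosome 3. Of the higher runs 53 held 1 symbol and 2 none, and of the lower runs 18 held 1 symbol and 4 none. The runs are thus mostly single genes. The plus-strand stretch held 28 of the higher runs and 9 of the lower ones. On deposited values, without centring, there were 27 higher and 69 lower runs. PTX values are given beside them; both comparisons share the control arrays.

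ATP13A3, a transporter of polyamines, gave the longest run, 34 members between 37594 and 37636. The run medians were 7.23, 7.18 and 6.09 in 231T, 4.22, 2.77 and 3.20 in PTX and 3.27, 3.44 and 3.86 in control. The 231T arrays stood clear of all others, while PTX and control overlapped. Member differences in 231T went between 1.05 and 4.85. Over the whole gene 41 of 44 members were higher and 0 lower, and of 33 junctions 22 were higher and 1 lower.

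TFRC, the transferrin receptor that takes up iron, had the run with the largest 231T difference of the 61, 28 members of which 27 were TFRC alone. Medians were 10.74, 10.93 and 10.52 in 231T, 5.20, 3.43 and 4.36 in PTX and 3.45, 4.17 and 3.77 in control, a 231T difference of 6.93. The 231T arrays were within 0.41 of each other and far above the rest. The next number held the 1 TFRC member of 29 that overlapped control: part 38104 had 0.40, 0.49 and -0.17 in 231T, 0.40, 0.62 and 0.92 in PTX and 0.93, 0.61 and 0.10 in control. Part 38105, next to it, lay wholly above control again by a smaller difference, with 4.94, 4.92 and 4.72 in 231T, 4.78, 4.89 and 5.01 in PTX and 4.58, 4.39 and 4.49 in control. TFRC junctions, 21 in all, had a median 231T difference of 6.38, with 17 higher and 0 lower, and its gene-level value differed by 5.05.

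The third run, 21 members between 43099 and 43119, had no symbol. Its medians were 5.58, 5.67 and 4.71 in 231T, 4.23, 2.89 and 3.16 in PTX and 2.25, 2.28 and 2.54 in control. EIF4A2, a helicase of translation initiation annotated together with the small nucleolar RNAs in its introns, gave 20 members with 7.61, 7.17 and 8.04 in 231T, 5.53, 5.39 and 5.48 in PTX and 4.60, 4.71 and 4.29 in control. TOPBP1, a scaffold of DNA replication and its checkpoint, gave 17 with 5.23, 5.59 and 4.54 in 231T, 4.16, 3.24 and 3.23 in PTX and 2.13, 2.19 and 2.63 in control. In these 3 runs the PTX arrays also lay wholly above control, between it and 231T.

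Among the lower runs the longest, 29 members between 40250 and 40278, had no symbol, with 2.87, 2.55 and 1.9987 in 231T, 3.79, 3.78 and 4.37 in PTX and 4.96, 4.82 and 5.01 in control. PLXNA1, a plexin receptor for semaphorins, followed with 24 members and 2.73, 2.17 and 2.12 in 231T, 3.73, 3.82 and 4.31 in PTX and 4.77, 4.62 and 4.73 in control. Over the whole gene 34 of 37 PLXNA1 members were lower and 0 higher. PLXND1, a plexin of vascular guidance, gave 19 members with 2.49, 1.78 and 1.62 in 231T, 3.89, 4.24 and 4.41 in PTX and 4.22, 4.26 and 4.65 in control. There PTX overlapped control, and 42 of 49 PLXND1 members were lower in 231T and 0 higher. A pair of runs without symbols lay between SLMAP and ABHD6. The first, 24 members, had 8.53, 8.84 and 8.11 in 231T, 9.33, 9.97 and 9.69 in PTX and 10.78, 10.42 and 10.59 in control, and the second, 19 members, had 8.26, 8.06 and 7.64 in 231T, 8.62, 9.18 and 9.06 in PTX and 10.04, 9.56 and 9.80 in control.

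**Figure D2:**
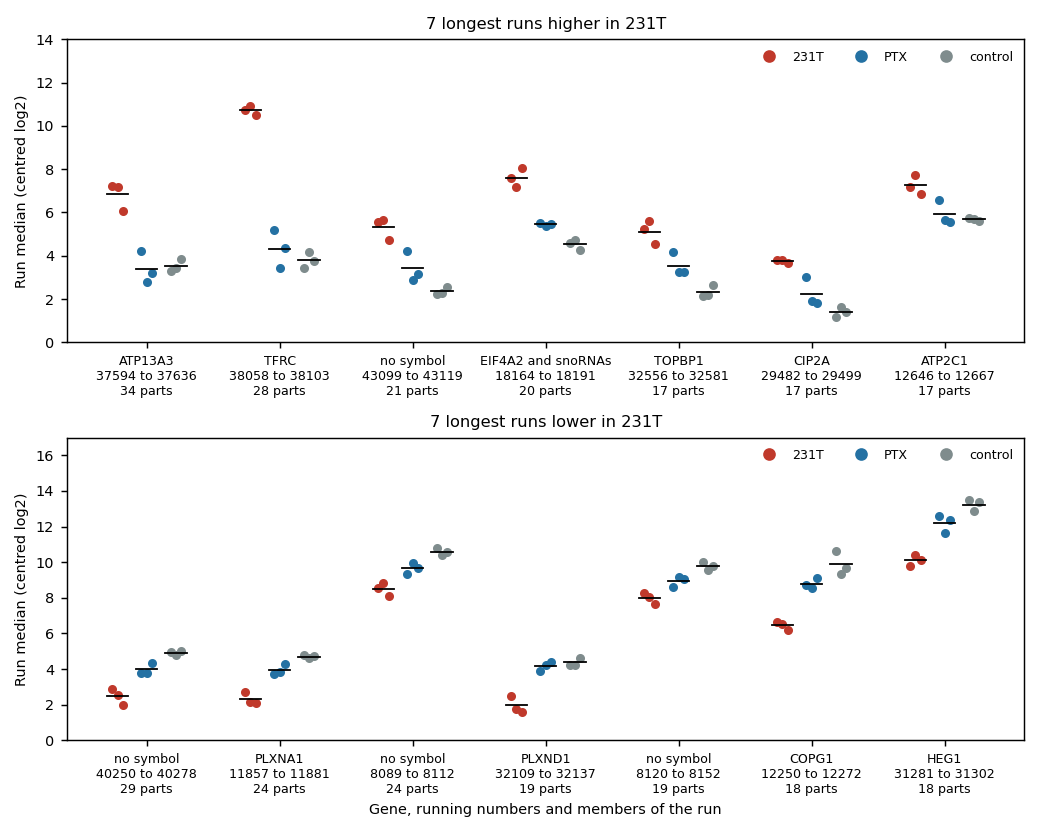
Median of each run (log2, centred, vertical axis) on each array, for the 7 longest runs higher and the 7 longest lower in 231T, with 3 arrays of 231T, PTX and control from left to right in each run and a bar at the group mean. Labels give the gene, the running numbers and the members. The 231T arrays of TFRC stand between 10.52 and 10.93, against 3.45 to 4.17 in control.

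COPG1, a coat subunit of retrograde Golgi transport, and HEG1, a receptor of vascular and adhesion signalling, came next with 18 members each. COPG1 had 6.63, 6.53 and 6.20 in 231T, 8.71, 8.55 and 9.13 in PTX and 10.62, 9.36 and 9.69 in control. HEG1 had 9.80, 10.38 and 10.15 in 231T, 12.58, 11.66 and 12.36 in PTX and 13.47, 12.85 and 13.39 in control. In both genes the order was 231T, PTX, control, with no overlap. At the gene level HEG1 differed by -3.06, the lowest chromosome 3 value in 231T, and COPG1 by -2.12. Shorter lower runs belonged to MAP4 (13 members, difference -3.09), PPARG (11, -2.68), the nuclear receptor of fat storage, SEMA3F (11, -2.52), a secreted semaphorin, and TKT (11, -1.73), transketolase of the pentose phosphate pathway.

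Of 3365 chromosome 3 gene-level probe sets, which summarise a whole transcript cluster, 752 (22.3%) lay wholly above control in 231T and 491 (14.6%) wholly below, beside 18.1% and 16.5% over the whole table. With 1 symbol, the highest differences were those of TFRC (5.05), ATP13A3 (2.98), TM4SF19 (2.83) and PLOD2 (2.80). The lowest were those of HEG1 (-3.06), the ferritin pseudogene FTH1P4 (-2.56), which can share probes with its parent gene, LMCD1 (-2.16) and COPG1 (-2.12).

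Of 537 genes with at least 10 members, the gene median lay wholly above control in 240 and wholly below in 141 in 231T, and in 32 and 90 in PTX. Genes of other codes were not counted this way, and neither were values without centring. The median gene differed by 0.36 in 231T and by -0.09 in PTX. At least 80% of members were higher in 231T in 48 genes and lower in 18. In 96 genes at least 3 members were higher and at least 3 lower, beside 33.3% and 22.6% of all members, so mixed counts alone are no result about a gene. QARS had 8 higher and 19 lower of 40, and EIF4G1, a scaffold of translation initiation, 28 higher and 7 lower of 64.

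TRA2B, the paralogue of TRA2A, had 26 members among 32 exon parts, of which 18 were higher and 2 lower in 231T. Part 36861 had 9.71, 10.16 and 10.89 in 231T, 8.26, 7.25 and 6.32 in PTX and 5.41, 6.65 and 6.05 in control. Within the gene, parts 36876 and 36879 went the other way, and part 36875 overlapped control. Part 36876 had 0.60, -0.34 and -0.67 in 231T, 0.88, 1.08 and 0.56 in PTX and 1.84, 0.95 and 1.59 in control. Part 36879 had 0.42, 0.61 and -0.34 in 231T, 0.99, 0.42 and -0.23 in PTX and 1.40, 1.17 and 1.34 in control. Parts 36873 and 36881, on both sides of them, differed by 3.79 and 3.65 in 231T. All 3 PTX values of part 36879 also lay below control, and no TRA2B member passed in PTX. Parts 36876 and 36879 stood near the level of the background probe sets, whose control means ran between -2.37 and 1.43. Their differences are therefore not read as a loss of these parts. At the gene level TRA2B differed by 1.79 in 231T and by 0.25 in PTX (SE 0.28, limma, adjusted p = 0.838).

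PLOD2, a lysyl hydroxylase that modifies collagen, had 27 members, 23 higher and 3 lower in 231T. Part 33648 had 12.21, 12.38 and 12.06 in 231T, 8.80, 6.71 and 6.57 in PTX and 5.995, 6.92 and 6.12 in control. Part 33640 had 1.10, 0.998 and -0.46 in 231T, 3.56, 3.16 and 1.98 in PTX and 2.69, 3.76 and 2.70 in control. Part 33663 had 6.10, 5.54 and 5.72 in 231T, 7.39, 8.67 and 8.78 in PTX and 7.10, 7.21 and 6.83 in control. In 231T these last parts lay below control in a gene whose other parts lay up to 5.87 above it.

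MAP4, which binds and stabilises microtubules, showed the reverse. Of its 45 members, 33 were lower in 231T and 3 higher. The 3 higher ones stood close together in the numbering. Part 23686 had 2.60, 2.35 and 2.12 in 231T, 2.34, 2.10 and 2.84 in PTX and 0.56, -0.31 and 0.32 in control. It was 2.24 higher in PTX (SE 0.32, limma, adjusted p = 0.0345), with no overlap. Parts 23689 and 23690 differed by 1.45 and 2.03 in 231T, and by 0.71 and 1.10 in PTX, where neither passed (limma, adjusted p = 0.651 and 0.279). The lowest MAP4 member differed by -4.46 in 231T. Its junctions were mostly lower, 29 of 36, with 2 higher.

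**Figure D3:**
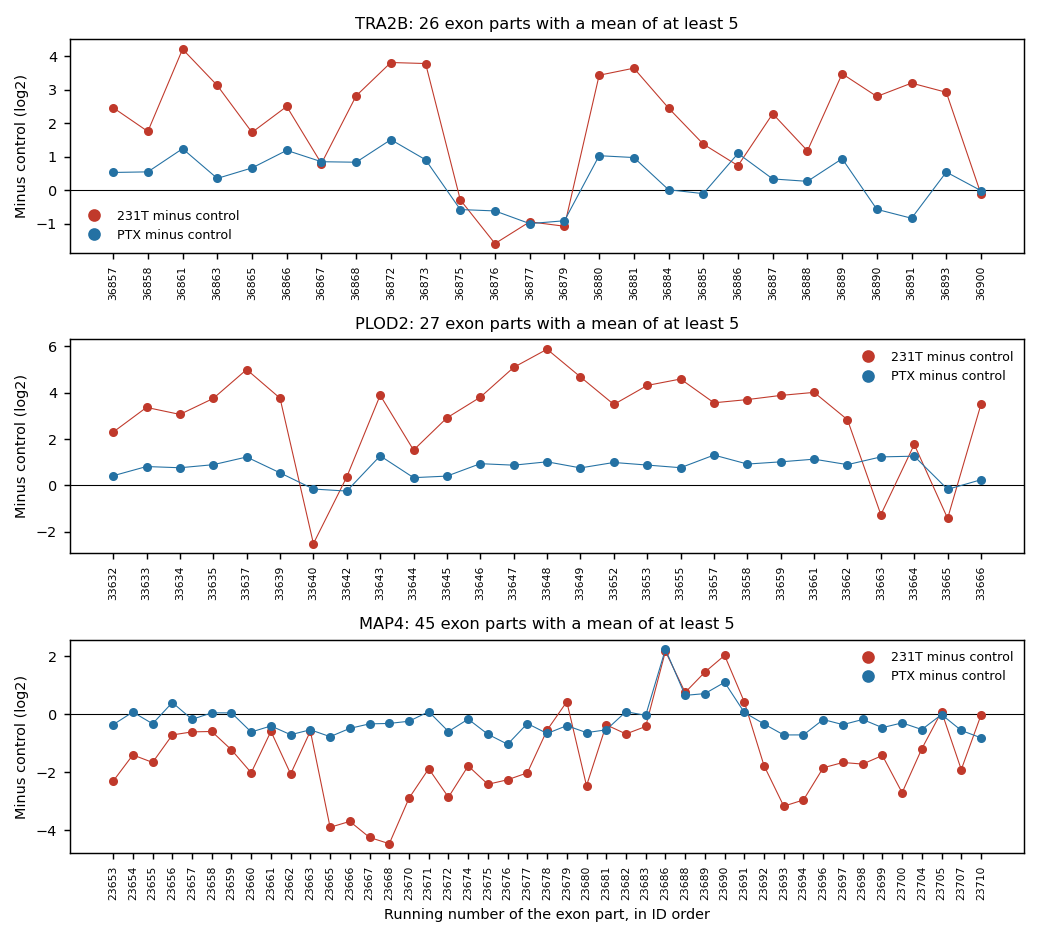
Difference from control (log2, vertical axis) of each member of TRA2B, PLOD2 and MAP4 in ID order (horizontal axis, running numbers), for 231T minus control and PTX minus control. Some parts lie on the other side of 0 than most of their gene, such as TRA2B part 36876 (-1.59 in 231T), PLOD2 part 33640 (-2.50) and MAP4 part 23686 (2.17).

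In the list headed cell division and replication, 14 of 15 genes had members. Its counts and medians are those of the list, which also holds MAP4, described above as a binder of microtubules. The gene median lay wholly above control in 11 and wholly below in 1 in 231T, beside 240 and 141 of all 537 genes with at least 10 members, with a median difference of 1.09 beside 0.36 over those genes, and of 0.33 in PTX beside -0.09. CDC25A, the phosphatase that drives entry into S phase, had 5.08, 4.40 and 4.94 in 231T, 2.05, 2.24 and 2.88 in PTX and 1.51, 2.16 and 1.44 in control. SMC4, a condensin subunit, had 5.57, 5.42 and 5.13 in 231T, 7.06, 5.65 and 5.10 in PTX and 3.50, 4.32 and 4.42 in control, so that both groups lay above control. MAP4 was the exception, with -1.42 in 231T. In PTX, 1 of the 397 members of these genes passed, beside 0.264% of all members, the MAP4 part above, and 0 of 14 gene-level probe sets did. SMC4 differed by 1.28 there (limma, adjusted p = 0.223). In each list, genes with at least 1 member were counted, without the minimum of 10 set for the 537 genes. Listed genes without members were not analysed here.

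In the list headed RNA binding and splicing, 15 of 15 genes had members. The list also holds TAMM41 and SRPRB, which are not genes of that class, so its counts and medians are those of the list. Of its genes 10 lay wholly above and 2 wholly below control in 231T, beside 240 and 141 of 537. The median difference was 0.85 in 231T, beside 0.36 over the 537 genes, and -0.26 in PTX, beside -0.09. MBNL1 had 7.29, 7.87 and 6.63 in 231T, 5.95, 4.11 and 5.34 in PTX and 5.31, 5.50 and 5.37 in control. RBMS3, which binds single-stranded nucleic acid, had 4.87, 5.40 and 4.61 in 231T, 2.63, 1.95 and 2.49 in PTX and 2.68, 2.76 and 2.59 in control. In MBNL1 and RBMS3 231T alone stood apart from control. IGF2BP2, which binds and stabilises mRNAs, had 5.43, 5.13 and 3.90 in 231T, 3.54, 2.78 and 3.24 in PTX and 4.61, 4.05 and 4.36 in control. It lay wholly below control in PTX, and its gene-level difference of -1.17 did not pass (limma, adjusted p = 0.0820).

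Of the genes of 3q that are often gained in carcinomas, 14 of 15 had members, and 10 lay wholly above and 1 wholly below control in 231T, beside 240 and 141 of 537. The median difference was 0.97 in 231T, beside 0.36, and 0.07 in PTX, beside -0.09. TFRC, named above for its long run, was the highest. ECT2 is also in the list of cell division and FXR1 in that of RNA binding, so the lists are not independent. They were chosen with earlier results of these data known. PRKCI, an atypical protein kinase C, had 5.36, 6.02 and 4.50 in 231T, 3.66, 2.34 and 2.50 in PTX and 2.81, 3.22 and 2.86 in control. TBL1XR1, a corepressor subunit, had 6.02, 6.09 and 5.49 in 231T, 4.57, 2.57 and 3.55 in PTX and 3.14, 3.16 and 3.12 in control. SOX2, a stem cell factor, had 1 member, which overlapped in all groups. In PTX 0 of the 379 members of the list passed (limma), beside 0.264% of all members, and 0 of its 12 gene-level probe sets did.

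In the list headed growth-restraining genes of 3p, which also holds the oncogene CTNNB1, 13 of 15 genes had members. Of these 5 lay wholly above and 4 wholly below control in 231T, beside 240 and 141 of 537. The median difference was 0.18 in 231T, beside 0.36, and -0.07 in PTX, beside -0.09. The members did not go 1 way. PBRM1, a chromatin remodelling subunit, had 5.56, 5.23 and 4.36 in 231T, 4.82, 3.63 and 3.83 in PTX and 2.72, 3.14 and 3.04 in control, above control in both. FHIT, a hydrolase at a fragile site, had 0.93, 1.67 and 1.40 in 231T, 1.68, 1.76 and 2.001 in PTX and 2.93, 2.42 and 2.10 in control, below control in both. SEMA3F had 0.00, 0.13 and 0.44 in 231T, 0.86, 1.36 and 1.14 in PTX and 2.14, 2.09 and 2.03 in control. In PTX 4 of the 278 members of the list passed (limma), all lower, in SEMA3F, FHIT and SEMA3B, beside 0.264% of all members. On deposited values VHL and RHOA turned sign in 231T, to -0.03 and -0.22.

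In the list headed adhesion, signalling and transport, which also holds the transcription factor BHLHE40, 15 of 15 genes had members. Of these 6 lay wholly above and 6 wholly below control in 231T, beside 240 and 141 of 537. The median difference was -0.13 in 231T, beside 0.36, and 0.01 in PTX, beside -0.09. CDCP1, a surface substrate of Src kinases, had 5.50, 5.97 and 5.33 in 231T, 3.49, 3.03 and 3.65 in PTX and 3.59, 3.37 and 3.18 in control. WNT5A, a secreted ligand, had 1.84, 1.75 and 1.21 in 231T, 2.45, 1.56 and 1.25 in PTX and 2.51, 2.48 and 2.66 in control. CDCP1 was high in 231T alone, and WNT5A was low in both groups. In PTX 0 of the 304 members of the list passed (limma), beside 0.264% of all members, and neither did any of its 15 gene-level probe sets. NECTIN3 and MME turned sign in 231T on deposited values, to -0.03 and -0.11.

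**Figure D4:**
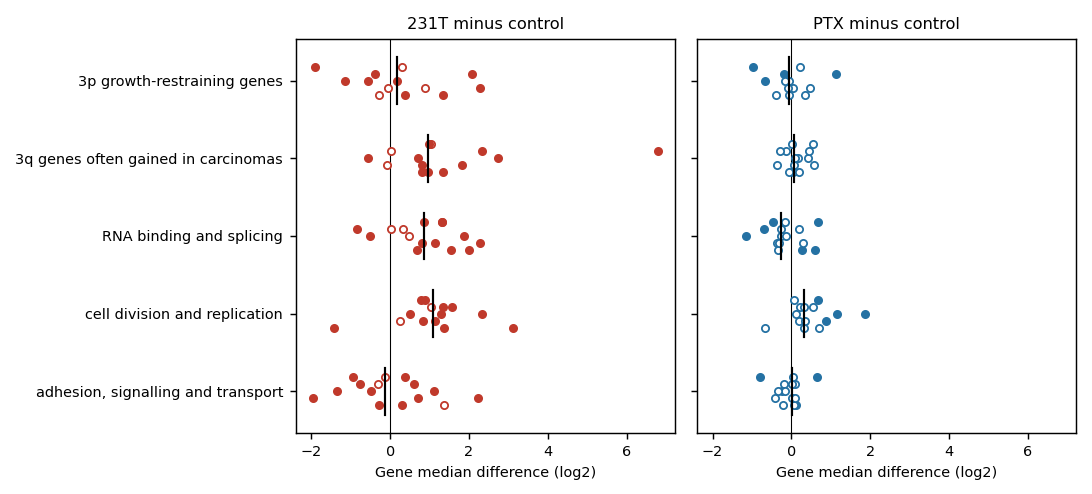
Difference from control of the gene median (log2, horizontal axis) for each gene of the 5 lists (rows), in 231T on the left and PTX on the right. Filled points mark genes whose 3 arrays all lie beyond the 3 control arrays, and bars mark the list median. The list medians run between -0.13 and 1.09 in 231T and between -0.26 and 0.33 in PTX.

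In PTX against control, 44 members (0.264%) passed the test over all 448953 exon-part and junction probe sets (limma, adjusted p under 0.05), beside 0.38% over that table. Of these 4 rose and 40 fell, beside 0.0918% and 0.288%, and 2199 members (13.2%) had an unadjusted p under 0.05. LMCD1, a LIM-domain regulator of transcription, held 5 of the fallen members, PDIA5, a disulfide isomerase of the endoplasmic reticulum, 4, and TMEM39A, a membrane protein, 3. BTD, which recycles biotin, CRTAP, a partner of collagen prolyl hydroxylation, and SEMA3F held 2 each. A further 11 called members had no symbol. These calls rest on all arrays: leaving out 231T replicate 3 left 24 calls, PTX replicate 3 left 4, PTX replicate 1 or 231T replicate 1 left 1, and any of the other 5 arrays left 0. Fitted on the PTX and control arrays alone, 0 passed, while 115 passed among members that averaged at least 7.

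The lowest called member was part 2930 of CRTAP, with 3.78, 1.74 and 3.93 in PTX against 6.70, 6.01 and 6.26 in control. It fell by 3.18 (SE 0.54, adjusted p = 0.0485). ABI3BP part 29144 had 3.19, 2.65 and 3.81 in PTX against 6.58, 5.50 and 5.40 in control, and fell by 2.61 (SE 0.42, adjusted p = 0.0424). In 231T that part had 1.22, 0.55 and 1.16. BTD part 2090 had 3.25, 2.48 and 3.41 in PTX against 5.81, 5.73 and 5.08 in control, and fell by 2.50 (SE 0.34, adjusted p = 0.0293). LMCD1 part 527 had 5.56, 4.84 and 6.44 in PTX against 8.22, 7.95 and 7.9997 in control, and fell by 2.45 (SE 0.40, adjusted p = 0.0446). None of these 4 overlapped. Part 8113, with no symbol, fell by 2.41 (SE 0.40, adjusted p = 0.0474).

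The called members that rose were part 15978, with no symbol, the MAP4 part 23686 given above, DCBLD2 part 28956 and HMGN2P25 part 33267. Part 15978 had 13.25, 14.07 and 14.10 in PTX against 10.66, 11.50 and 11.51 in control. DCBLD2, a transmembrane receptor-like protein, had 6.55, 5.94 and 6.26 in PTX against 4.68, 4.32 and 3.79 in control at that part, a difference of 1.98 (SE 0.32, limma, adjusted p = 0.0427). HMGN2P25, a pseudogene of a chromatin protein that can share probes with its parent, had 8.50, 8.50 and 8.33 in PTX against 6.41, 7.18 and 6.69 in control. In all 4 the PTX arrays lay above control.

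At the gene level 27 of the 3365 chromosome 3 probe sets (0.802%) passed in PTX against control (limma), beside 0.93% over the table of 67528. Of these 5 rose and 22 fell, beside 0.194% and 0.736%, and 369 had an unadjusted p under 0.05. The median chromosome 3 probe set differed by -0.01, as did the median of the table. Among those that fell were CRTAP, P3H2, PDIA5, TKT, PCCB, which carboxylates propionyl-CoA, MGLL, a monoacylglycerol lipase, and PPARG. Leaving out PTX replicate 1 left 38 calls, PTX replicate 3 left 23, 231T replicate 3 left 15, 231T replicate 1 left 9, 231T replicate 2 left 8, control replicate 2 or PTX replicate 2 left 4, control replicate 3 left 2 and control replicate 1 left 1.

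LMCD1 had 1.94, 1.55 and 2.08 in PTX against 2.90, 2.96 and 3.07 in control, and fell by 1.12 (SE 0.15, limma, adjusted p = 0.0224). CRTAP had 7.95, 7.65 and 8.17 in PTX against 9.16, 8.83 and 8.90 in control, and fell by 1.04 (SE 0.14, limma, adjusted p = 0.0238). P3H2, a collagen prolyl hydroxylase, had 5.90, 5.71 and 5.91 in PTX against 6.97, 6.62 and 6.76 in control, and fell by 0.94 (SE 0.11, limma, adjusted p = 0.0171). PDIA5 had 3.0005, 2.71 and 2.95 in PTX against 3.85, 3.79 and 3.68 in control, and fell by 0.89 (SE 0.11, limma, adjusted p = 0.0185). All 3 PTX arrays lay below control in these 4 genes. In 231T they had 0.81 ± 0.17, 7.87 ± 0.04, 6.17 ± 0.11 and 2.91 ± 0.13 (SD, n = 3), also below control. The control arrays are the same in both comparisons, so the 231T values are not independent of the PTX falls.

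TMEM39A fell by 1.11, TKT by 1.06, MGLL by 0.72, PCCB by 0.69, PPARG by 0.63 and FHIT by 0.52 in PTX (limma, adjusted p between 0.0298 and 0.0467). DALRD3, SIAH2, APEH, EXOSC7, TMEM40 and QARS1 fell by between 0.62 and 0.46. QARS1 is the current symbol of the gene called QARS above. SIAH2 is a ubiquitin ligase, APEH a peptidase and EXOSC7 a subunit of the RNA exosome. HES1, a target of Notch signalling that represses transcription, had 3.87, 3.95 and 4.13 in PTX against 3.34, 3.05 and 3.22 in control, and rose by 0.78 (SE 0.12, limma, adjusted p = 0.0312). SCARNA7, a small RNA of Cajal bodies, had 9.10, 9.86 and 9.18 in PTX against 7.97, 8.32 and 8.08 in control, and rose by 1.26 (SE 0.20, limma, adjusted p = 0.0302). In 231T SCARNA7 had 7.14, 6.89 and 7.07, below control.

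**Figure D5:**
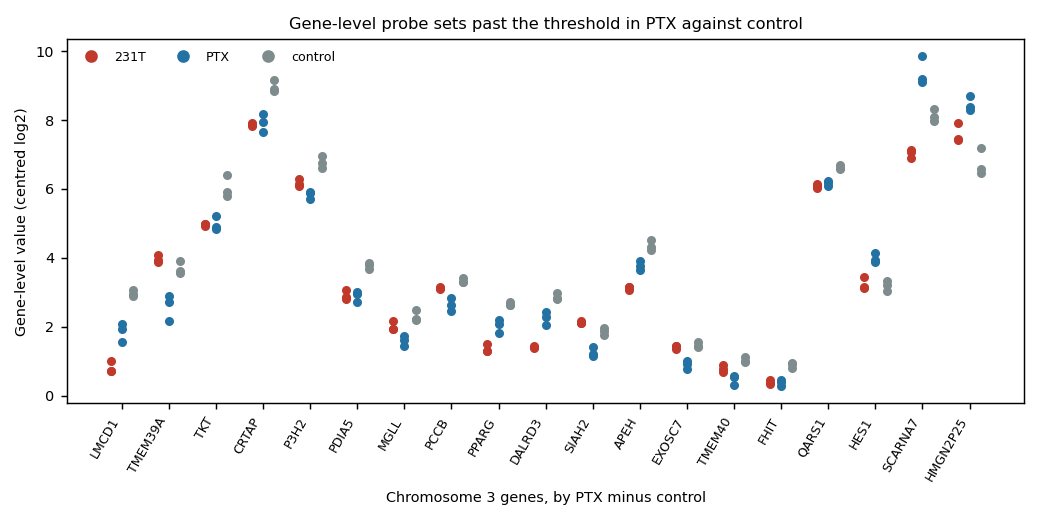
Gene-level value (log2, centred, vertical axis) on each array for the chromosome 3 genes with 1 symbol that passed in PTX against control, ordered by that difference (horizontal axis), with 231T, PTX and control from left to right. LMCD1 is the lowest difference (-1.12) and HMGN2P25 the highest (1.70).

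The largest PTX differences at the gene level did not all pass. TM4SF1, a tetraspanin-like surface protein, differed by -1.43 (limma, adjusted p = 0.0897), SUCLG2, a succinate-CoA ligase subunit, by -1.31 (adjusted p = 0.0551) and HEG1 by -1.21 (adjusted p = 0.0937). Among the highest, the small RNA copies RNA5SP149, RNU6-26P and RNA5SP141 differed by 1.79, 1.51 and 1.44, with adjusted p between 0.180 and 0.342. These copies are near identical to others elsewhere in the genome, so their probes may read several.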

How the data were processed

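RNA of MDA-MB-231 cells was measured on Affymetrix arrays, with 9 records at the exon level and 9 at the gene level, 3 a group each. The gene-level records are presumably a second summary of the same arrays. Their values are therefore not taken as independent of the exon parts. Per the submitters' processing notes, the authors used RMA and Affymetrix Expression Console 1.3.1, which gave the deposited log2 values. No array coordinates are printed, as the sources used here do not give their build. The precision is limited by the number of arrays. Symbols come from the platform annotation, of which 98 on chromosome 3 were updated through RefSeq.

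The median exon part of codes 01 to 22 was subtracted from each array. A group lay wholly above or below control where all 3 arrays did. PTX against control was fitted with limma 3.58.1 in R 4.3.3, with all 9 arrays in 1 fit (6 residual degrees of freedom) and Benjamini-Hochberg adjustment over all exon-part and junction probe sets with a mean of at least 5, over all gene-level probe sets, over 1256 windows and over 22 codes, at a threshold of 0.05. The limma fit was tried on simulated data with planted shifts larger than the differences of the called members. Code medians, windows and runs were tried on simulated or constructed values. Centring, the gene-level fit and the gene lists were not simulated. Named were the 5 longest runs each way, the 5 highest and 5 lowest exon parts that passed and did not overlap, the windows with the highest and lowest PTX difference, the 10 highest and 10 lowest gene-level differences, and 5 gene lists. Other genes were chosen after their values were seen. Members and lists were chosen with earlier results of these data known. Alternatives were deposited values, quantile normalization, another centring, other minimum levels, other run definitions, a fit of PTX and control alone, a replicate block and leaving out each array.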

Additional observations from a re-analysis of the deposited data

How the results depend on the processing

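The chromosome 3 median in PTX against control (-0.05) was 0.00623 with arrays centred over exon parts that average at least 5 (limma, adjusted p = 0.938) and lay between -0.187 and 0.0746 when arrays were left out in turn. The junction median (0.04) was -0.0421 to 0.0943 with arrays left out, the lowest without PTX replicate 1 (limma, adjusted p = 0.955). In 231T the chromosome 3 median (0.31) was -0.087 on deposited values, 0.18 with the other centring, 0.53 for exon parts that average at least 7 and 0.0590 with no minimum, and 0.26 to 0.41 with arrays left out. Higher runs (61) numbered 27 on deposited values, 295 with at least 5 members, and 61 to 101 with arrays left out, the most without 231T replicate 3. Leaving out a 231T or control array loosens the run rule, and PTX arrays do not enter it. That range therefore does not show that the count is stable. Lower runs (24) numbered 69, 136, and 15 with members that differ by at least 1. Of 99 named 231T differences, 59 moved by more than the spread between replicates on deposited values. A further 4, whose arrays did not overlap control, changed sign: VHL, RHOA, NECTIN3 and MME, higher in 231T, had -0.0304, -0.219, -0.0311 and -0.112. Sign changes of differences with overlapping arrays were not counted. Called exon parts (44) numbered 115 at a mean of at least 7, 0 in a fit of PTX and control alone, and 0 to 24 with arrays left out. Called gene-level probe sets (27) numbered 1 to 38 with arrays left out. The replicate block left 0 exon parts and 1 gene-level probe set called. Same-numbered samples had correlated deviations between -0.22 and 0.06, so the numbers are not taken as pairs. Windows stayed at 0 calls by limma under the alternatives run. Apart from fewer arrays, genes or a changed definition, the cause was not tested. With 3 arrays a group, small PTX differences could not be detected.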

Other observations

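A few further genes, picked after their values were seen and given with no test, are described by their exon parts in 231T, beside 33.3% of all members wholly above control and 22.6% wholly below. STT3B, a catalytic subunit of N-glycosylation, had 22 of 24 members wholly above control, with medians of 8.71, 8.99 and 8.97 in 231T, 8.14, 6.15 and 6.89 in PTX and 6.71, 7.04 and 7.01 in control. SSR3, a subunit of the translocon-associated complex, had 14 of 17, with 11.04, 11.31 and 10.79 in 231T, 10.13, 7.23 and 8.16 in PTX and 9.19, 9.26 and 9.68 in control. DNAJB11, a chaperone of the endoplasmic reticulum, had 13 of 15 and SEC61A1, the channel subunit, 16 of 21. SEC13, a coat subunit of vesicles that leave it, had 17 of 28 members wholly below control. PSMD2, a subunit of the proteasome, had 37 of 44 wholly above, with 10.55, 10.23 and 10.52 in 231T, 8.36, 8.51 and 8.62 in PTX and 7.90, 8.52 and 8.18 in control.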
